A study of Mus musculus with 8 samples.

Results

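The potassium channel genes of the mouse were examined for peaks of H3R17me2a, a histone H3 mark in which arginine 17 carries an asymmetric pair of methyl groups, in cardiomyocyte nuclei of mice injected as neonates. The set comprised the 94 genes, of 21887 protein-coding genes on chromosomes 1 to 19, X and Y of the RefSeq annotation of mm10, whose symbol begins with Kcn followed by a letter. Peaks were assigned to a gene if they touched its span or the 5 kb beyond either end, and are called linked below. All mice carried floxed Carm1 alleles (genotype Carm1fl/fl) in both groups and were injected on postnatal day 1 with an adeno-associated virus (AAV9). The virus carried Cre recombinase in the knockout group (2 ChIP libraries) and green fluorescent protein in the control group (2 ChIP libraries), which the sample titles call wild type although its Carm1 alleles are floxed too. The labels give neither the age at harvest nor the promoter that drives Cre. Hearts were mosaic, so cardiomyocytes that the virus did not reach may be present among the nuclei of either group, and nuclei were sorted on PCM1, a cardiomyocyte marker. Peak positions do not measure expression, so the lists give no check of the cell type.

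Potassium channels set the resting membrane potential and end the action potential. A channel consists of pore-forming subunits, which open with voltage, with calcium or with ligands or conduct inward current preferentially, and of auxiliary subunits that alter gating and transport to the membrane. In the mouse ventricle the transient outward current of Kcnd2 and Kcnd3, with the auxiliary subunit Kcnip2, carries most of the early repolarisation, and the inward rectifier Kcnj2 holds the resting potential. Carm1, an arginine methyltransferase and transcriptional coactivator, deposits H3R17me2a.

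Control 1 had 12990 peaks, control 2 had 8742, knockout 1 had 4980 and knockout 2 had 9531. The 4 lists were called separately, total read numbers are unknown, and nothing in the labels says whether the replicates came from separate animals. Fold enrichment is the authors' value relative to the local background of one library and is given for description only. The number of fragments at a summit was recovered from the deposited fold and p-value for each of the 131 peaks linked to potassium channel genes. The weakest summits of any list had 5 fragments in control 1, control 2 and knockout 2 and 6 in knockout 1. The lists held 0 peaks linked to Carm1, the targeted gene, and peak positions do not measure its deletion.

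At least 1 list had a peak in 37 of the 94 potassium channel genes, where 23.0% of all protein-coding genes had one. The genes with a peak were mostly long, with a median span of 186 kb against 19.7 kb for the 57 genes without a peak. Kcnn2, a calcium-activated channel of small conductance, held 14 peaks over the 4 lists, the most of the set. Kcnab1, a cytoplasmic beta subunit of voltage-gated channels, held 12, and Kcnip4, a calcium-binding subunit of the Kcnd channels with a span of 1136 kb, held 9. Kcnd2 held 7, and Kcnh1, Kcnj6, Kcnk12 and Kcnma1 held 6 each. No peak was linked to a further protein-coding gene, whereas 4.28% of all linked peaks of the 4 lists were.

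**Figure D1:**
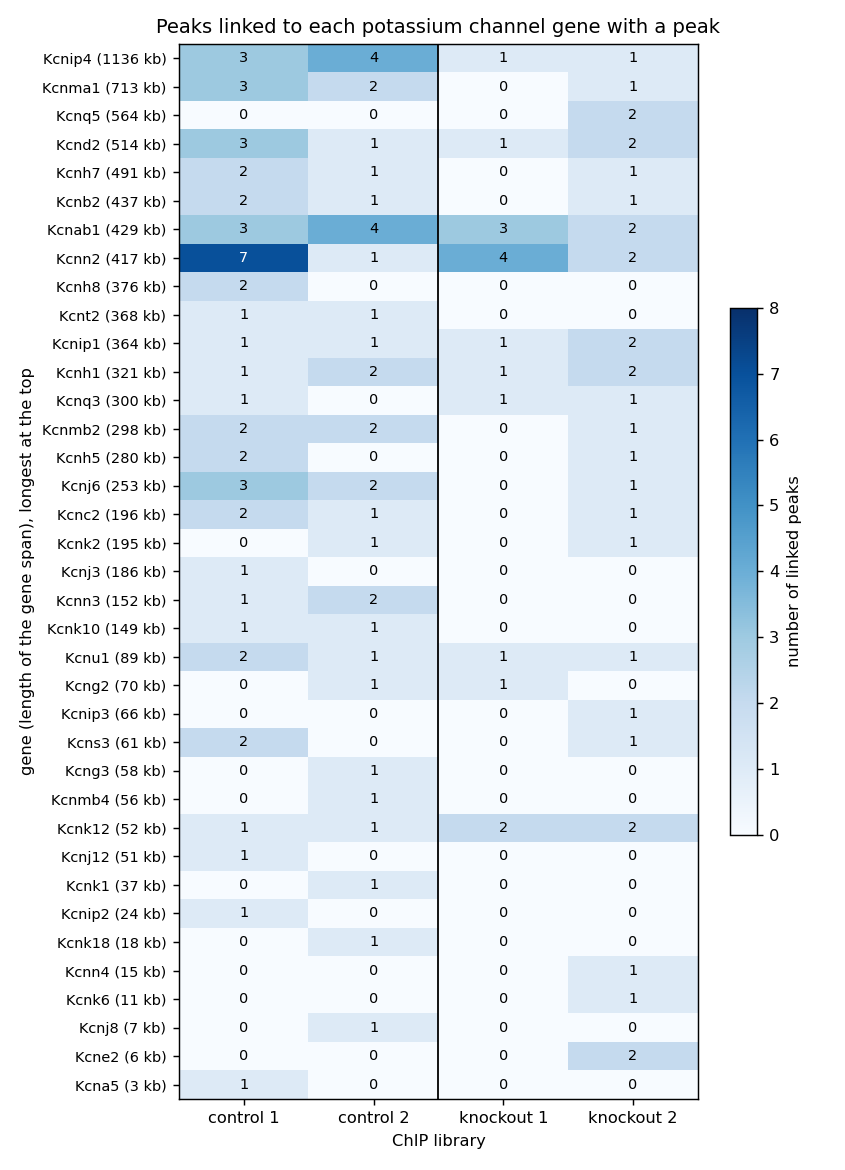
Number of peaks linked to each of the 37 potassium channel genes with a peak (rows, longest gene span at the top, span in kb) in each ChIP library (columns). Kcnn2 has 7, 1, 4 and 2 peaks, and each of the 9 shortest genes has peaks in 1 library alone.

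In control 1, 25 potassium channel genes had a linked peak, where 12.5% of all protein-coding genes did. The number was 24 in control 2 (10% of all genes), 10 in knockout 1 (6.37%) and 23 in knockout 2 (10.3%). Knockout 1, the list with the fewest peaks, stood apart from the other 3, which lay within 2 genes of each other. The commonest local background over its whole list was 0.608 fragments, against 0.395 in control 1, 0.47 in control 2 and 0.367 in knockout 2. Whether this bears on the number of genes called was not tested. Peaks were present in 1 list alone for 15 genes (13.7% of all protein-coding genes), in 2 lists for 7 (4.51%), in 3 lists for 7 (2.63%) and in all 4 lists for 8 (2.16%). These 8 were Kcnab1, Kcnd2, Kcnh1, Kcnip1, Kcnip4, Kcnk12, Kcnn2 and Kcnu1, with a median span of 391 kb.

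Gene length was then taken into account, since a longer gene has more room for peaks. Of 36 potassium channel genes under 20 kb, 6 had a peak in any list, against 9.69% of all protein-coding genes of that length. Among these, Kcna5, Kcnj8, Kcnk6 and Kcnn4 had their only peak outside the gene span. The channel genes under 20 kb were also longer than the other genes of that class (median 8.6 kb against 6.3 kb). Of 35 genes of 20 to 100 kb, 10 had one, a share of 28.6% against 27.7%. Of 9 genes of 100 to 300 kb, 8 had one, against 66.5%. The channel genes of this class were longer than its other genes (median 196 kb against 147 kb), so the class matches length only in part. Of 14 genes of 300 kb or longer, 13 had one, against 95.7%. The exceptions in the upper classes were Kcnd3 and Kcnq1, both pore subunits of cardiac repolarising currents. Had each gene been called at the share of the other protein-coding genes in its length class, 32.6 genes would have had a peak, where 37 had. By list, that number was 21.3 in control 1 (25 observed), 17.6 in control 2 (24), 12.4 in knockout 1 (10) and 18.1 in knockout 2 (23). With links to the gene span alone, 33 genes were observed and 28.5 by length. The excess turned to a deficit when peaks were linked over 50 kb on either side, with 55 genes observed and 62.2 by length. These shares are descriptions, with no test.

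**Figure D2:**
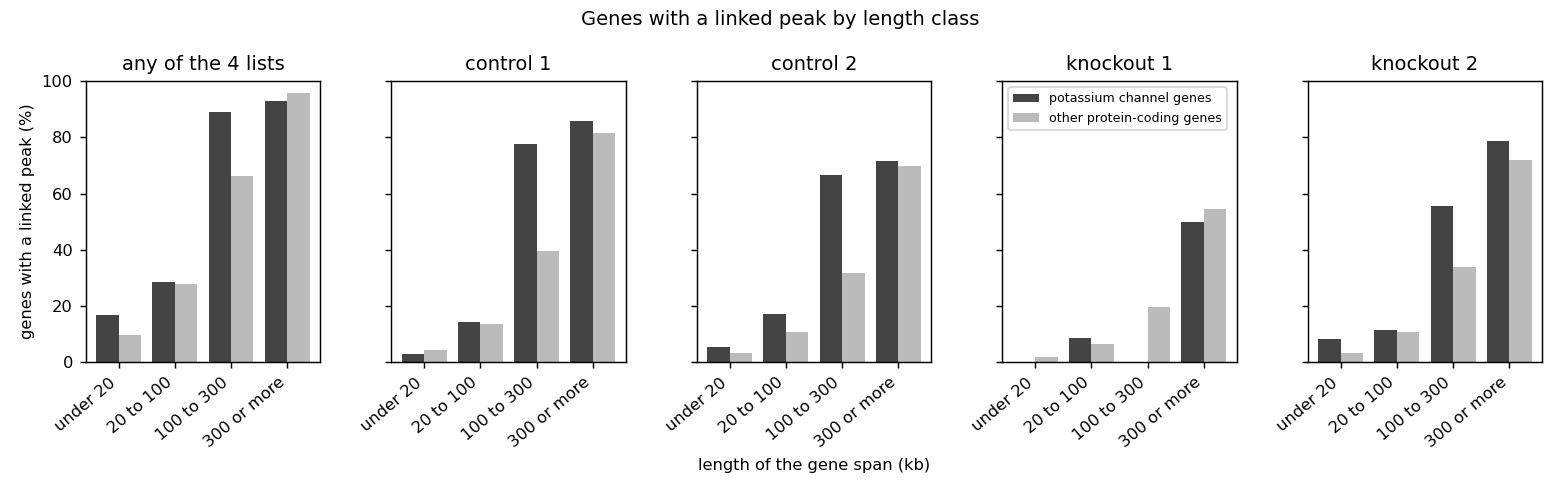
Percentage of potassium channel genes (dark bars) and of all other protein-coding genes (light bars) with a linked peak, by length of the gene span in kb, in any list and in each library. Both shares are higher in the longer classes, and in knockout 1 the class of 100 to 300 kb has 0 of 9 potassium channel genes.

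The class of 100 to 300 kb held the widest difference between libraries. Control 1 called 7 of its 9 genes and control 2 called 6, whereas knockout 1 called 0 and knockout 2 called 5. Among the other protein-coding genes of that length, control 1 called 39.6%, control 2 31.8%, knockout 1 19.5% and knockout 2 33.8%. The 8 called members were Kcnmb2, Kcnh5, Kcnj6, Kcnc2, Kcnk2, Kcnj3, Kcnn3 and Kcnk10. The knockouts thus lay further from each other than the controls did. Per megabase of gene span with its flanks, control 1 had 4.22 peaks over potassium channel genes and 3.63 over all protein-coding genes. Control 2 had 3.02 and 2.54, knockout 1 had 1.38 and 1.47, and knockout 2 had 2.67 and 2.77. Among short and long genes alike, the order of channel genes and all genes differed between libraries. Under 100 kb, the channel genes had 2.95 peaks per megabase in control 1 and 2.95 in control 2, against 3.23 and 2.38 for all genes of that length. They had 1.48 in knockout 1 and 3.32 in knockout 2, against 1.44 and 2.47. Among genes of 300 kb or longer, they had 4.21 in control 1 and 2.61 in control 2, against 4.31 and 2.74. They had 1.74 in knockout 1 and 2.47 in knockout 2, against 1.59 and 3.22.

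On average, fewer genes were called in the knockouts than in the controls, among channel genes and among all protein-coding genes. The controls averaged 24.5 ± 0.707 genes with a peak (SD, n = 2) and the knockouts 16.5 ± 9.19 (SD, n = 2), a log2 ratio of -0.57. The groups did not overlap, by a margin of 1 gene, in a design whose smallest possible p is 0.333 (exact two-sided permutation test, p = 0.333). They overlapped when peaks were limited to −log10 q of at least 5 (exact permutation p = 0.667). Over all protein-coding genes the means were 2469.5 ± 385 and 1826 ± 611 genes (SD, n = 2 each), a log2 ratio of -0.44, and the groups overlapped (exact permutation p = 0.667). The ratio rested on knockout 1: without it the log2 ratio was -0.09, and without knockout 2 it was -1.29. Knockout 1 was also the shortest list, so the share of each list was compared as well. Linked peaks made up 0.377% of control 1 (49 peaks, 95% Clopper-Pearson interval 0.279% to 0.498%) and 0.400% of control 2 (35 peaks, 0.279% to 0.556%). They made up 0.321% of knockout 1 (16 peaks, 0.184% to 0.521%) and 0.325% of knockout 2 (31 peaks, 0.221% to 0.461%). The group means were 0.389% ± 0.0164 and 0.323% ± 0.00281 (SD, n = 2 each). The difference of -0.0655 percentage points had the smallest p the design allows (exact two-sided permutation test, p = 0.333, which a Benjamini-Hochberg adjustment over the 2 tests of channel gene number and share leaves as it is). This separation was lost with −log10 q of at least 5 (-0.0344 points, exact permutation p = 0.667) and with equally long lists (-0.0602 points, exact permutation p = 0.667). Each list's interval covers the shares of the other 3, which is no test of the difference between the groups. These intervals cover counting error only. Peaks linked to any protein-coding gene made up 33.1% and 34.3% of the control lists and 35.0% and 34.4% of the knockout lists.

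Peaks of the 4 lists that overlapped by at least 1 bp were merged into regions, of which 106 were linked to potassium channel genes. A single library called 91 of them, 2 libraries called 9, 3 libraries called 3, and the full set of 4 called 3. The share in 2 or more libraries was 14.2%, against 15.1% of the 9992 regions linked to any protein-coding gene and 16.4% of all 28843 regions. A region in 2 or more libraries was held by 11 potassium channel genes (5.23% of all protein-coding genes had one), where 10.8 would follow from the shares of other genes by length class. A region in 3 or more libraries was held by 6 (2.11%) and a region in all 4 by 3 (0.758%), shares over genes of all lengths. Among genes of 300 kb or longer, a region in all 4 was held by 2 of 14 channel genes and by 53 of 557 protein-coding genes. Under 100 kb it was held by 1 of 71 and by 72 of 19458.

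Kcnd2 encodes a pore-forming subunit of the fast transient outward current, and its region was the one in a channel gene where the peaks of all 4 libraries shared bases. The region spans chromosome 6, 21394103 to 21395077 (mm10), inside the gene span of 21215346 to 21729805 on the plus strand, where exons and introns were not assigned. From the gene start, the summit of control 1 lay at 178.899 kb, that of control 2 at 178.932 kb, that of knockout 1 at 179.022 kb and that of knockout 2 at 179.335 kb. They thus fell within 436 bp, and 400 bp (21394195 to 21394594) were covered in every list. Both controls had 8 fragments at the summit, where enrichment was 6.40-fold (control 1) and 6.09-fold (control 2). Both knockouts had 9, at 5.42-fold (knockout 1) and 7.28-fold (knockout 2). Local backgrounds were 0.406 and 0.479 fragments in the controls and 0.846 and 0.373 in the knockouts, so that the lowest fold, in knockout 1, came with the highest background and not with fewer fragments. The other Kcnd2 peaks were called in 1 library each, on 5 fragments in knockout 2 and on 5 and 6 in control 1. The peak of knockout 2 had its summit 180.873 kb from the gene start, just downstream of the shared region.

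The other regions assigned to all 4 libraries were chains of peaks with no base common to the 4. In Kcnab1 the region at chromosome 3, 65195331 to 65196865, had 11 fragments at the summit in control 1 (7.84-fold) and 9 in each of the others, control 2 (6.44-fold), knockout 1 (5.73-fold) and knockout 2 (6.81-fold). The peaks of knockout 1 and knockout 2 did not overlap each other, and both overlapped those of the controls. In Kcnk12, a 2-pore channel that passes little current on its own, the region at chromosome 17, 87750053 to 87751614, had 8 fragments in control 1, 9 in control 2, 10 in knockout 1, and 8 at each of its 2 peaks in knockout 2. Here the knockout 1 peak overlapped that of knockout 2 and neither control peak. Among all merged regions, 472 of the 602 called in 4 libraries had a base common to all. With peaks required to overlap by 50% reciprocally, Kcnd2 alone among the channel genes kept a region of 4 libraries, and with −log10 q of at least 5 the number was 0.

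**Figure D3:**
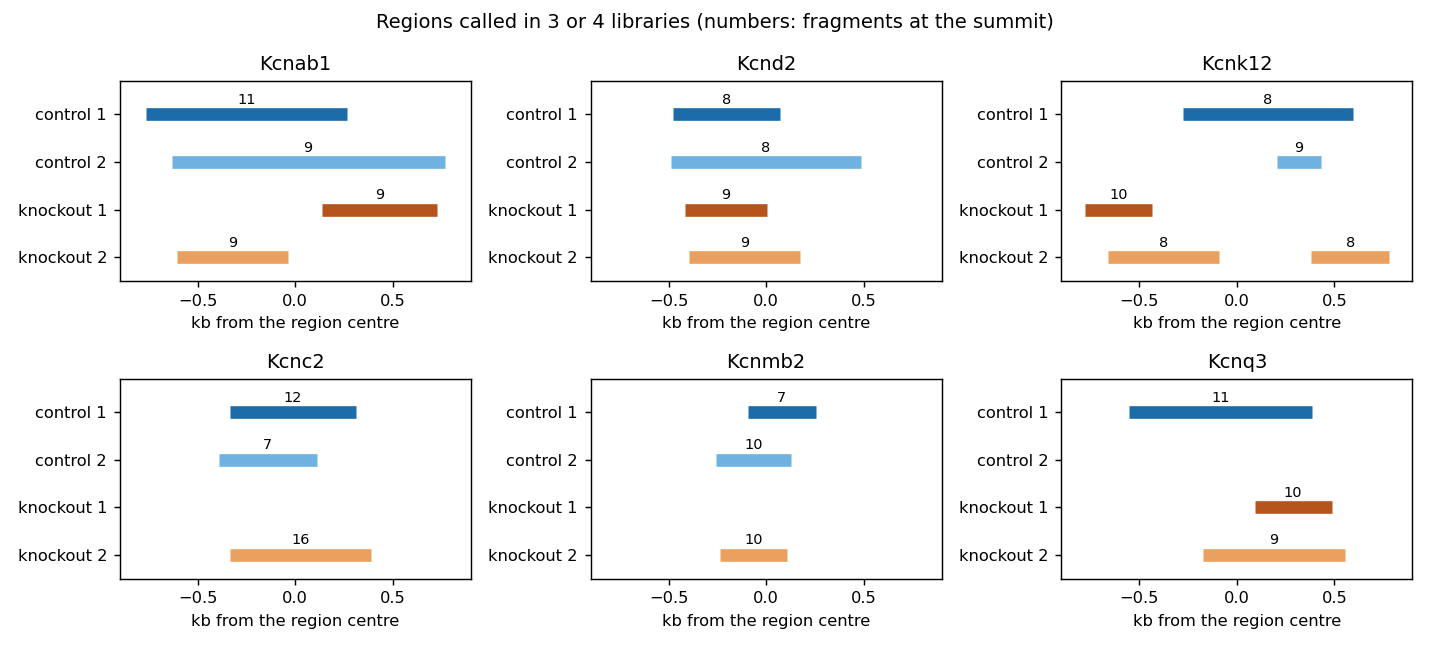
Peaks (bars) of each library in the 6 regions of potassium channel genes called in 3 or 4 libraries, against the distance in kb from the region centre, with the number of fragments at each summit. In Kcnd2 the 4 bars cover common bases, and in Kcnab1 and Kcnk12 they form a chain.

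Regions of 3 libraries lay in Kcnc2, Kcnmb2 and Kcnq3. Kcnc2, a voltage-gated subunit of fast-spiking neurons, had a region at chromosome 10, 112425265 to 112426043, with 12 fragments in control 1, 7 in control 2 and 16 in knockout 2. Kcnmb2, an auxiliary subunit of the large-conductance calcium-activated channel, had one at chromosome 3, 32167951 to 32168461, with 7 fragments in control 1, 10 in control 2 and 10 in knockout 2. Both lacked a call in knockout 1, the shortest list. Kcnq3, a subunit of the neuronal M-current, had a region at chromosome 15, 66057221 to 66058328, with summits of 11 fragments in control 1, of 10 in knockout 1, of 9 in knockout 2, and no call in control 2. A region called in 3 of the 4 libraries has a call in both groups by definition. The peaks of the 3 regions shared 446, 205 and 297 bp, in the order given.

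Of the 9 regions of 2 libraries, 1 was called in both controls and neither knockout, and 8 in 1 control with 1 knockout. The former lay in Kcnn2 at chromosome 18, 45357717 to 45357949, on 6 fragments in control 1 and 8 in control 2. Knockout 1 had a separate peak close by, at 45358927 to 45359215, on 8 fragments. A region of both controls and neither knockout was found in 0.991% of all protein-coding genes. A region of both knockouts and neither control was found in 0 channel genes, and in 0.439% of all protein-coding genes. Regions of 1 control and 1 knockout lay in Kcnn2 (3 regions), Kcnab1, Kcnip4, Kcnh5, Kcnma1 and Kcns3. The peaks shared 28 bp in Kcnip4 and 28 bp in the Kcnn2 region starting at 45362822. Kcnma1 is the pore of the large-conductance calcium-activated channel, Kcnh5 a channel of the ether-a-go-go family, and Kcns3 a modifier of other voltage-gated subunits. By gene instead of region, Kcnk10, Kcnn3 and Kcnt2 were called in each control but not in a knockout (1.18% of all protein-coding genes were), at different positions in the 2 controls. The reverse held for 0 channel genes (0.370%).

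Several genes called in all 4 lists were called at different positions in each. Of the 8 such genes, 3 held a region of all 4 libraries, a share of 37.5%, against 35.1% of the 473 protein-coding genes called in all 4 lists. Kcnh1, an ether-a-go-go channel of neurons, had 6 peaks over 241 kb with none overlapping. Kcnip1, a calcium-binding subunit of Kcnd channels, had 5 over 217 kb, the nearest neighbours 28.2 kb apart. Kcnu1, a pH-sensitive potassium channel of sperm, had 5 peaks within 5.74 kb of its 89.3 kb span, at chromosome 8, 25871673 to 25877414, and none of these overlapped. Knockout 1 lay at one edge, control 1 at the other, and the gaps were 0.437 to 2.22 kb. Kcnn2 had 7 peaks within 5.70 kb at chromosome 18, 45357717 to 45363419, of which 3 were from control 1, 1 from control 2, 3 from knockout 1 and 0 from knockout 2. These stretches were chosen after their values were seen.

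**Figure D4:**
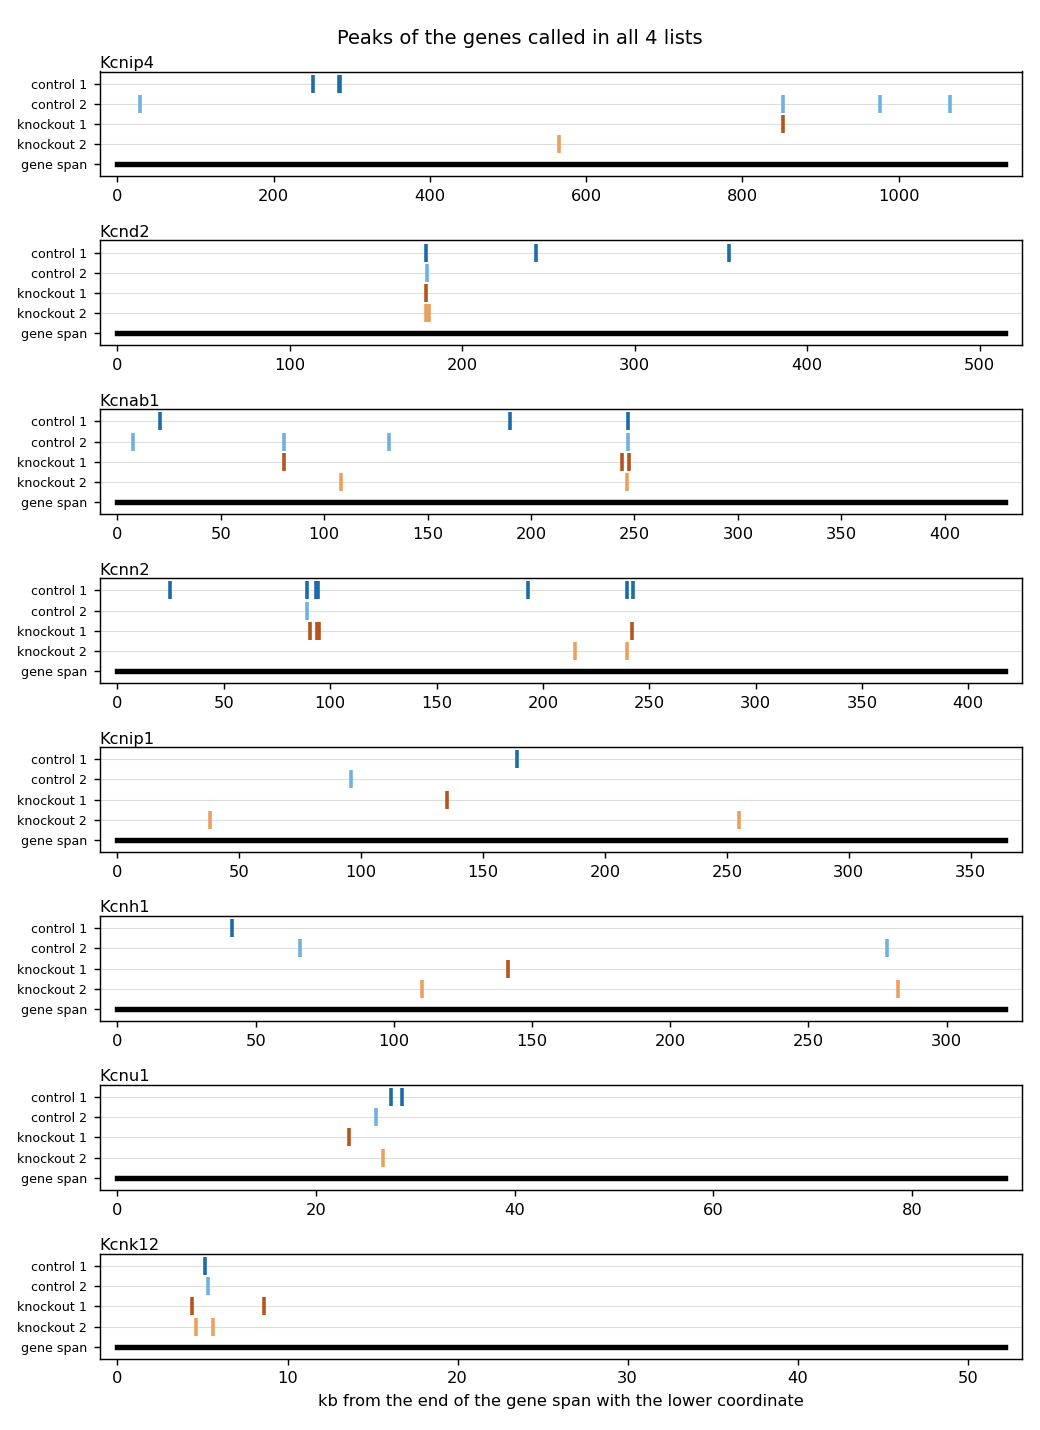
Positions of peaks (ticks, 1 row per library) in the 8 potassium channel genes called in all 4 lists, in kb from the end of the gene span with the lower coordinate (black bar: gene span). Ticks of the 4 libraries line up in Kcnd2 and at 1 place in Kcnab1, lie close together in Kcnk12 and Kcnu1, and are scattered in Kcnh1 and Kcnip1.

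Cardiac members comprised 19 genes whose subunits are known from currents of heart muscle cells. A peak in any list was held by 9, where 7.38 would follow from the shares of other genes of their length. Neuronal members comprised 29 genes known mainly from neurons. A peak was held by 15, where 14.7 would follow. Cardiac members had a median span of 36.2 kb and neuronal members of 60.0 kb. Control 1 called 6 cardiac and 13 neuronal members, control 2 called 4 and 11, knockout 1 called 2 and 4, and knockout 2 called 4 and 10. A region in 2 or more libraries was held by 2 cardiac members, Kcnd2 and Kcnn2, where 2.45 would follow by length. It was held by 4 neuronal members, Kcnc2, Kcnh5, Kcnip4 and Kcnq3, where 5.83 would follow. With 50% reciprocal overlap Kcnip4 no longer held such a region. With −log10 q of at least 5, and likewise with equally long lists, Kcnn2, Kcnh5 and Kcnip4 no longer held one. Without control 1 the number of cardiac members with a peak was 5, because Kcna5, Kcnip2, Kcnj3 and Kcnj12 had their single peak there. The difference between the lists of genes was not tested.

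The other 7 cardiac members with peaks were called in no region of more than 1 library. Kcnip2, the auxiliary subunit of the cardiac transient outward current, had 1 peak on 5 fragments in control 1, 16.4 kb from the gene start. Kcna5, the pore of an ultrarapid delayed rectifier, had 1 on 9 fragments in control 1, 3.45 kb outside the gene span. Kcnj3, a subunit of the acetylcholine-activated channel of the atrium, and Kcnj12, an inward rectifier, had 1 each on 8 fragments in control 1. Kcnj8, a pore subunit of ATP-sensitive channels, had 1 on 10 fragments in control 2, 2.64 kb outside the gene span. Kcnk2, a stretch-sensitive 2-pore channel, had 1 on 7 fragments in control 2 and another on 15 fragments in knockout 2, at 10.9-fold enrichment. The latter ranked at percentile 97.1 of its list by q and was called in no other library.

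The 10 cardiac members without a peak lay 6.63 to 126 kb from the nearest peak of any list. Among them were Kcnd3, Kcna4, Kcnq1, Kcne1, Kcnh2, Kcnj2, Kcnj5, Kcnj11 and Kcnk3. The nearest peak was 107 kb from Kcnj2, 104 kb from Kcnh2, the pore of the rapid delayed rectifier, and 84.5 kb from Kcnq1. Absence from a list is not evidence that a gene lacks the mark.

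By family, 13 of 40 voltage-gated pore or modifier subunits had a peak in any list, where 14.98 would follow from the shares of other genes of their length. Of 15 inward rectifiers 4 had one (3.85 by length), of 14 2-pore channels 6 (3.57), of 8 calcium- or sodium-activated and related channels 6 (4.46), and of 17 auxiliary and other subunits 8 (5.69). The voltage-gated family was the one below the number its lengths give. The inward rectifiers had 5 peaks in control 1, 3 in control 2, none in knockout 1 and 1 in knockout 2, and 0 of their genes held a region in more than 1 library, where 0.773 would follow by length.

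Most peaks lay inside the genes. Of the 131 peaks, 124 overlapped a gene span and 7 lay only in the flanks. The summits of 111 were in the middle 80% of the span. Starts were available for the 69 channel genes with a promoter entry, which had 37 and 31 linked peaks in the controls and 9 and 25 in the knockouts. A summit within 1 kb of a start was found once among them, in knockout 2. Over all 17492 protein-coding genes with a promoter entry, 1.88% to 2.29% of a list's linked peaks had such a summit. This peak was at Kcne2, a small auxiliary subunit that associates with several cardiac pore subunits, and had 7 fragments at 5.85-fold enrichment. Its summit lay at -0.087 kb from the gene start, on the upstream side. It is shown because it is the one promoter entry of these 69 genes that a peak covered, while the starts of the other 25 genes were not examined. The RefSeq promoter sequence (GRCm38.p6, chr16:92292139-92292438, plus strand) has the 189 bases that the peak covered in capitals.
Kcne2: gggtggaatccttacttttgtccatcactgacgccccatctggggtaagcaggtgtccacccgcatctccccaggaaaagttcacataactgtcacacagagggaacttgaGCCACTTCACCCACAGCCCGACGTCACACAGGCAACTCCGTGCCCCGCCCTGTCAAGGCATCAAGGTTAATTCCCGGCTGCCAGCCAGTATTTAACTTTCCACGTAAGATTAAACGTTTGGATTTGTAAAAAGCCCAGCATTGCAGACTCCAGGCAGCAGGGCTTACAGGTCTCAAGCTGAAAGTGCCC
Its GC content was 53.0%, where the median of all 32851 promoter entries was 52.7%. Searched on both strands, the half-site of the cyclic AMP response element, CGTCA, occurred at 1 position on each strand, the forward one starting at base 133 inside the covered part. It is held by 20.8% of all promoter entries. The TATA box, TATAAA, did not occur and is held by 13.6%. The GATA site, AGATAA, did not occur and is held by 11.2%. The form CACGTG of the E-box did not occur and is held by 7.15%. Other forms of the E-box were not searched for. These are matches of letters and not binding sites.

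The limit of 5 kb for linking left peaks on either side of it. Just inside it, Kcne2 had a second peak in knockout 2 at 3.77 kb (5 fragments), Kcnh8 one in control 1 at 3.77 kb (10 fragments) and Kcna5 the one at 3.45 kb. Just outside it, knockout 1 and knockout 2 each had a peak at 6.05 and 6.24 kb from Kcnj6, a G-protein-gated inward rectifier of neurons, on 12 and 6 fragments. Kcnj5, the partner of Kcnj3 in the atrium, had peaks in control 2, knockout 1 and knockout 2 at 6.75, 7.09 and 6.63 kb, on 10, 8 and 8 fragments. Kcne1, the auxiliary subunit of the slow delayed rectifier, had peaks in control 2 and knockout 1 at 7.25 and 7.31 kb, on 20 and 13 fragments. These are not counted above.

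Most calls rested on few fragments. Summits with 10 or fewer fragments made up 91.8%, 91.4%, 81.3% and 93.5% of the channel genes' peaks in control 1, control 2, knockout 1 and knockout 2, against 87.9%, 87.0%, 76.8% and 88.5% of the whole lists. Median fold was 5.41, 5.44, 5.66 and 5.85, and 5.69, 5.44, 5.54 and 5.66 over the whole lists. Peaks in regions of 1 library had a median of 7 fragments (91 peaks), those of 2 libraries 7 (18), of 3 libraries 10 (9) and of 4 libraries 9 (13). Of the 7 peaks with 12 or more fragments, 4 were called in 1 library alone. The strongest was in Kcnip1, with 17 fragments and 12.9-fold enrichment in control 1 and no overlapping peak in another list. The share of channel gene peaks in a region of another list was 24.5% in control 1 (12 of 49, 95% Clopper-Pearson interval 13.3% to 38.9%), 25.7% in control 2 (9 of 35, 12.5% to 43.3%), 50% in knockout 1 (8 of 16, 24.7% to 75.3%) and 35.5% in knockout 2 (11 of 31, 19.2% to 54.6%). For all peaks linked to protein-coding genes it was 27.2%, 29.8%, 43.8% and 30.6%, inside the interval of each list.

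**Figure D5:**
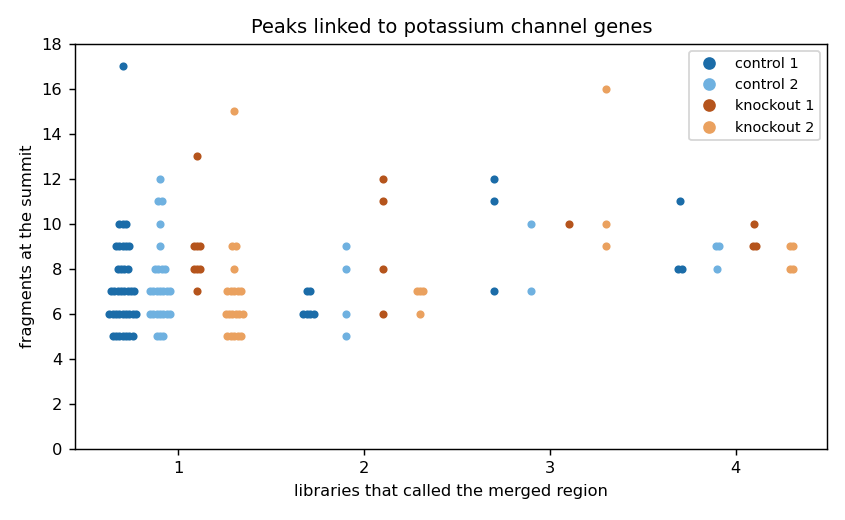
Fragments at the summit of each of the 131 peaks linked to potassium channel genes (points, coloured by library), by the number of libraries that called the merged region. Regions of 4 libraries rest on 8 to 11 fragments per peak, and the highest summit, with 17, is in a region of 1 library.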

How the data were processed

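The authors deposited 1 peak list per ChIP library, without pooling. Bowtie2, MACS2 and build mm10 are named per the submitters' processing notes; no version or setting was recorded there. The 4 input libraries have no list of their own. The deposited fold is the ratio of summit to local background, with a deposited −log10 p for its significance and a −log10 q after the authors' adjustment within that list. The display score deposited by the authors is 10 times the −log10 p.

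Fragments and background at a summit (k, b) were solved from fold = (k + 1)/(b + 1) and the Poisson p-value, with a tolerance of 0.01 in −log10 p. On 2000 simulated peaks this recovered 100.0%, and it gave a value for 99.3% to 99.7% of peaks. Genes were RefSeq spans of GRCm38.p6, with strand and starts from its promoter table. Regions, links, length classes and permutation tests were computed with Python 3.11.15, NumPy 2.4.6, SciPy 1.17.1 and pandas 2.3.3. The permutation p-values only describe whether the 2 groups of libraries overlap. The spread between libraries may be technical. Members and lists were chosen with earlier results of these data known. Named were members with a region in 2 or more libraries, all cardiac members (1 of them is not reported here) and the 5 with the most peaks (tied ranks included); others named were singled out after their values were seen. Gene length was handled by 4 length classes.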

Additional observations from a re-analysis of the deposited data

How the results depend on the processing

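The log2 ratio of channel genes with a peak kept its sign in every setting run, from -1.29 to -0.09 with a library left out (-0.09 without knockout 1), and the difference in share of the list from -0.0771 to -0.0539 percentage points. With −log10 q of at least 5 the share difference was -0.0344 and the groups overlapped in both measures; with equally long lists they overlapped in the share alone. With a replicate block the log2 ratio was -0.69 and the share difference -0.0655. The replicate numbers pair libraries only by number: deviations from the group means correlated at -0.17 over 21887 genes and 0.07 over the 94 members, and crossing the numbers gave the same -0.69, since a mean of log ratios does not depend on the pairing. Regions called in every library used numbered 3, 0 with −log10 q of at least 5, 1 with 50% reciprocal overlap, and 2 to 5 with a library left out (5 without knockout 1). Regions in 2 or more libraries numbered 15, 6 with −log10 q of at least 5, 7 with equally long lists, 10 with 50% reciprocal overlap and 28 with links over 50 kb. Regions of the controls alone numbered 1, 0 with −log10 q of at least 5, 0 with equally long lists, 3 with links over 50 kb, 0 with gaps of up to 1 kb joined (a setting chosen after the data were seen), and 1 to 38 with a library left out (27 without control 1, 38 without control 2, 4 without knockout 2). Regions of the knockouts alone numbered 0, 2 with links over 50 kb, and 0 to 20 with a library left out (20 without knockout 1, 9 without knockout 2, 2 without control 1). When 1 library of a group is left out, such a count needs 1 call in place of 2. Genes with a peak numbered 37 against 32.6 by length class, and 23 against 18.2 with −log10 q of at least 5; with links over 50 kb they numbered 55 against 62.2. Cardiac members with a peak numbered 5 to 9 with a library left out (5 without control 1), and neuronal members 9 with −log10 q of at least 5. The other causes were not tested.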
